A study of Mus musculus with 9 samples.

Results

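The genes described here are 32 genes that mark radial glia and neural stem cells of the embryonic brain. They were taken by symbol from a list, and all 32 matched a row of the deposited table of 56748 genes. RNA was measured in brains of mouse embryos at embryonic day 14, described by the submitters as whole brain, in 9 libraries of 3 groups. The 3 control libraries came from wildtype mice given saline. The 3 poly(I:C) libraries came from mice exposed to poly(I:C), an artificial double-stranded RNA used to imitate infection by a virus. The 3 valproic acid libraries came from mice exposed to valproic acid, an anticonvulsant that inhibits histone deacetylases. The series concerns Notch signalling in mouse models of autism, for which both agents are given to pregnant mice. The labels name no dose, day of exposure, litter, strain, sex or pooling of embryos. Since nothing states that libraries of a group are separate embryos, the p-values reflect the spread of these samples alone. That spread may be technical between libraries alike in sex-linked transcripts. These transcripts, given below, separated replicate 3 of control and of poly(I:C) from replicates 1 and 2.

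Radial glia are the stem cells of the developing brain. Their cell bodies line the ventricle, a long fibre reaches the outer surface, and they divide to renew themselves and to give rise to neurons, often through intermediate progenitors, and later to glia. Notch signalling between neighbouring cells keeps them undifferentiated, while proneural factors such as Neurog2 drive them to become neurons. Patterning factors such as Pax6, Emx2 and Lhx2 give them their place in the forebrain.

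Libraries held 15399974 to 19883131 counts. The members took 0.463% to 0.490% of them, and 30 of the 32 had at least 314 counts in every library. Hopx (43 to 72 counts) and Veph1 (182 to 332 counts) were the shallowest. Levels are given as CPM, a gene's count relative to its library's total after TMM (trimmed mean of M-values) scaling. Forebrain markers were present, with Six3 at 46.0 to 55.2 CPM. By contrast, most markers of the midbrain and hindbrain were near the limit of detection in every group. Hoxa2, Hoxa3 and Hoxa5 had 0 counts in all 9 libraries, where 3 counts would correspond to 0.149 to 0.196 CPM, and En1 did not exceed 0.384 CPM. The 15 midbrain and hindbrain markers summed to 16.9 to 22.2 CPM, most of it from Gbx2 (13.8 to 18.7 CPM), a gene also active in the thalamus. The libraries labelled brain thus carried forebrain transcripts and hardly any of the defining hindbrain ones, in control as in exposed groups. Sex-linked transcripts were not balanced between the groups. Xist, the RNA that silences an X chromosome in females, ranged from 981 to 1060 CPM under valproic acid. It was at 1050 CPM in poly(I:C) replicate 3, while the other 5 libraries did not exceed 0.236 CPM. Of Y-linked genes, Eif2s3y, Ddx3y, Kdm5d and Uty together summed to 196 to 201 CPM in control and poly(I:C) replicates 1 and 2 and to 0 in the other 5 libraries, control replicate 3 having neither. Sex and valproic acid therefore cannot be told apart. All 32 members lie on autosomes.

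In control brain the members spanned a wide range of levels when counts were set per kilobase of exon. Fabp7, the brain fatty acid binding protein of radial glia, was the most abundant at 358 ± 9.19 CPM per kilobase (mean ± SD, n = 3). Vim, the intermediate filament vimentin, followed at 122 ± 3.16, and Dbi, an acyl-CoA binding protein, at 82.9 ± 6.11 CPM per kilobase. These 3 neighbours were separated by more than their spread. Further down the order many neighbours were not. Zic1 at 60.7 ± 0.626 and Nes, the intermediate filament nestin, at 59.7 ± 0.706 CPM per kilobase overlapped in their libraries, as did Slc1a3 and Pdpn, both at 15.5 CPM per kilobase. The lowest levels were those of Pon2 (2.47 ± 0.0905), Hopx (2.06 ± 0.215) and Veph1 (2.04 ± 0.263 CPM per kilobase). Hopx and Tnc, which mark outer radial glia in cortex with folds, were thus at very different levels here, with Tnc at 11.9 ± 1.11 CPM per kilobase. Replicates lay close together: the coefficient of variation of CPM over the control libraries had a median of 3.66% over the members, from 1.01% for Ddah1 to 12.9% for Veph1.

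**Figure D1:**
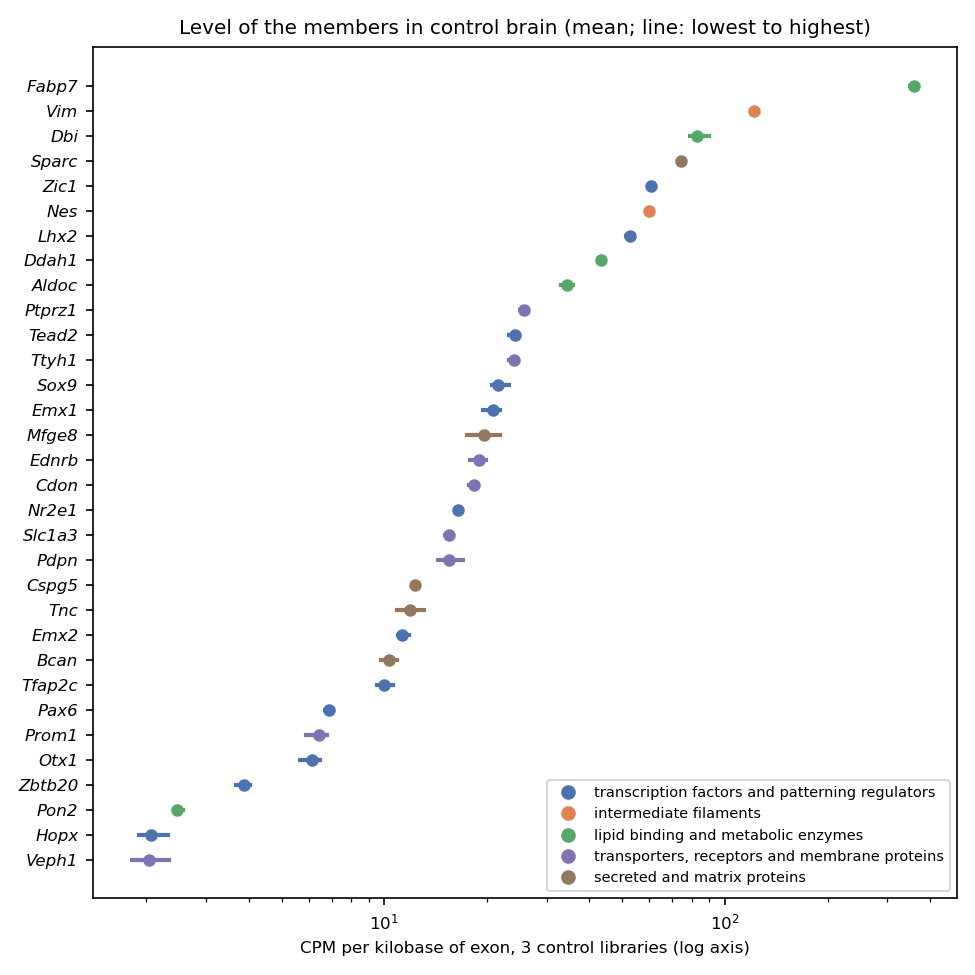
Level of each of the 32 members in the 3 control libraries, in CPM per kilobase of exon on a log axis, with the mean as a point and a line from the lowest to the highest library, coloured by role. Fabp7 stands alone at 358 CPM per kilobase, and Hopx and Veph1 lie lowest near 2.

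Valproic acid against control asked which of these genes differ in embryos exposed to valproic acid. By the quasi-likelihood test of edgeR, with p-values adjusted after Benjamini and Hochberg over all 17171 genes tested, 9 of the 32 members rose (3.57% of all genes did) and 1 fell (2.78%). That is 31.2% of the members against 6.35% of all genes. The genes tested had only to pass a filter with a minimum count of 10. Of the 32 members, 30 had at least 314 counts in every library. Shares of members and of all genes, here and in the comparisons below, are not matched for depth. At an unadjusted p under 0.05 were 18 members, against 22.1% of all genes. Those that rose were Vim, Tead2, Nr2e1, Pax6, Pon2, Lhx2, Prom1, Emx1 and Aldoc, and the gene that fell was Tnc. The changes were small, from 1.13-fold to 1.30-fold. The fold change was positive for 26 of the 32 members (81.2%) against 49.1% of all genes, and its median was 0.11 on the log2 scale against 0.00. For 15 members (46.9%) the libraries of the groups did not overlap, against 25.6% of all genes; 13 lay above control (12.6% of all genes) and 2 below (13%). Summed over the members, the level was 4570 to 4670 CPM in control, 4710 to 4800 CPM under poly(I:C) and 4910 to 5020 CPM under valproic acid. Fewer or more cells of a type and less or more RNA per cell cannot be told apart in such bulk samples. The number called was 6 without control replicate 1, and also 6 without valproic acid replicate 2.

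**Figure D2:**
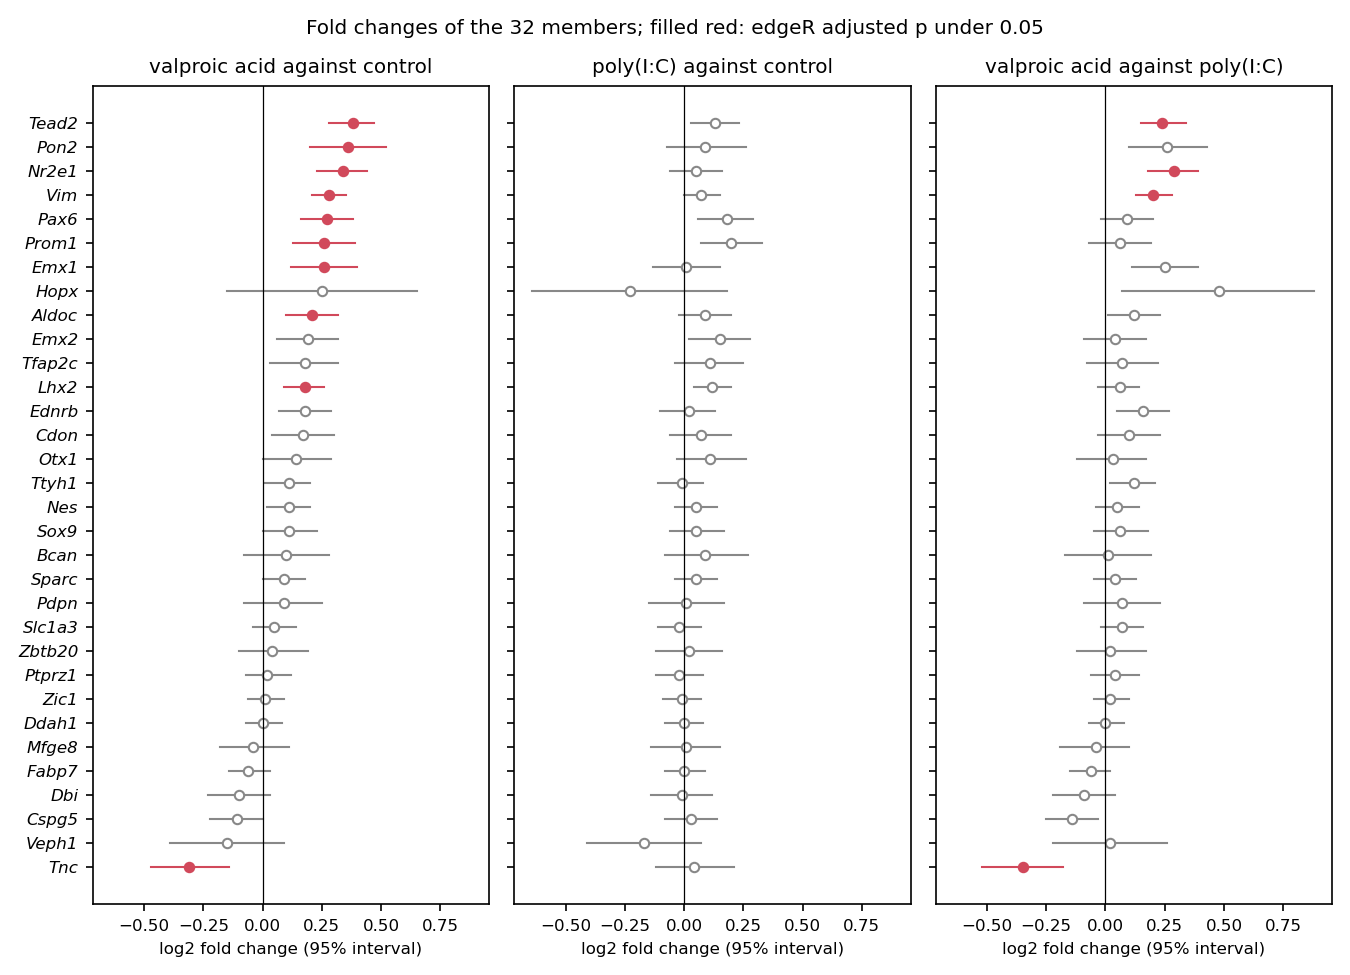
Log2 fold change of each of the 32 members with its 95% interval (unadjusted) in the 3 comparisons, ordered by the change under valproic acid; filled red points have an edgeR adjusted p under 0.05. Most members lie to the right of 0 under valproic acid, 10 are called there, none for poly(I:C) against control, and 4 between the exposures.

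Among the 12 transcription factors and patterning regulators 5 rose, none fell, and all 12 had a positive fold change (median log2 change 0.18). Of all genes 3.57% rose, 2.78% fell and 49.1% had a positive fold change. These shares also stand beside the counts of the other roles below. Tead2, a TEAD factor that binds DNA for the Hippo pathway coactivators, was at 111, 118 and 118 CPM in control, 132, 125 and 124 CPM under poly(I:C) and 158, 146 and 146 CPM under valproic acid. All valproic acid libraries lay above all others. The rise over control was 1.30-fold (log2 change 0.38, SE 0.0457, edgeR adjusted p = 4.83e-04). Nr2e1, the orphan nuclear receptor Tlx that keeps neural stem cells undifferentiated, was at 60.5, 61.9 and 61.7 CPM in control, 67.6, 60.8 and 62.2 CPM under poly(I:C) and 79.1, 76.6 and 76.8 CPM under valproic acid. Again the valproic acid libraries were apart from the other 6, and Nr2e1 rose 1.26-fold (log2 change 0.34, SE 0.05, edgeR adjusted p = 0.0017). Pax6, the master regulator of cortical radial glia, was at 78.6, 80.8 and 82.6 CPM in control, 95.7, 93.0 and 85.0 CPM under poly(I:C) and 101, 98.5 and 92.3 CPM under valproic acid. For Pax6 every exposed library of either group exceeded every control, and the rise under valproic acid was 1.21-fold (edgeR adjusted p = 0.00897). The calls of Tead2, Nr2e1 and Pax6 were kept in all 6 fits that left out a library, with the highest adjusted p at 0.0431 for Pax6.

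Emx1 and Emx2 are homeobox genes of the dorsal telencephalon. Emx1 was at 42.7, 45.7 and 47.6 CPM in control, 48.7, 44.5 and 43.7 CPM under poly(I:C) and 57.8, 54.1 and 51.1 CPM under valproic acid, which was above both other groups. It rose 1.2-fold (edgeR adjusted p = 0.0273). The call failed with any of control replicates 1 and 2 and valproic acid replicates 1 and 2 left out (up to 0.107). Emx2 was at 33.0 to 35.3 CPM in control and 36.3 to 40.2 CPM under valproic acid, without overlap, but was not called (1.14-fold, edgeR adjusted p = 0.0807). Lhx2, a LIM homeobox gene required for cortical identity, was at 225, 231 and 236 CPM in control, 260, 237 and 254 CPM under poly(I:C) and 261, 261 and 259 CPM under valproic acid. The valproic acid libraries lay within 2 CPM of each other and above every control. Lhx2 rose 1.13-fold (edgeR adjusted p = 0.0176), not called without control replicate 1 (0.0807). The 9 tested forebrain regional markers outside the members, Six3 among them, gave 0 calls by edgeR (0 at an unadjusted p under 0.05, 0 by DESeq2), with a median of 0.03.

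The remaining factors were not called. Otx1, a homeobox gene of forebrain progenitors, had a log2 change of 0.14 (95% interval 0.00 to 0.29), Tfap2c, an AP-2 factor, one of 0.18 (0.03 to 0.32) and Sox9, which sustains stem cells and precedes gliogenesis, one of 0.11 (0.00 to 0.23). Zic1, a zinc finger gene of medial and caudal progenitors and of meninges, was at 342 to 349 CPM in control and 338 to 362 CPM under valproic acid, with an interval of -0.06 to 0.09. Zbtb20, a zinc finger repressor of the hippocampal field, had an interval of -0.10 to 0.19. Hopx was at 2.53 to 4.20 CPM over all libraries and its interval, -0.15 to 0.65, leaves changes of up to 1.57-fold undetected.

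Of the intermediate filaments, Vim rose and Nes did not pass the test. Vim was at 564, 581 and 594 CPM in control, 619, 609 and 603 CPM under poly(I:C) and 723, 689 and 698 CPM under valproic acid. The 3 groups did not overlap and stood in that order. Vim rose 1.21-fold under valproic acid (580 ± 15 to 703 ± 17.6 CPM, mean ± SD, n = 3; edgeR adjusted p = 4.53e-04). Nes was at 379 to 388 CPM in control and 398 to 429 CPM under valproic acid, also without overlap, at 1.08-fold (edgeR adjusted p = 0.148). Vimentin is also made by endothelial and meningeal cells. Of 10 endothelial markers Slc2a1 and Pecam1 rose (1.17-fold and 1.18-fold), neither of them called without control replicate 1 or valproic acid replicate 3. The call of Slc2a1 also depended on control replicate 2 and valproic acid replicate 1, and that of Pecam1 on control replicate 3 and valproic acid replicate 2. The sum of the list was 425 to 443 CPM in control and 439 to 476 CPM under valproic acid. Of 15 mural cell and meningeal fibroblast markers Fn1 rose 1.33-fold and Acta2 and Rgs5 fell, and their sum was 1030 to 1080 CPM in control and 1050 to 1270 CPM under valproic acid. No marker of these lists was at 0 in all 9 libraries, and their part in the rise of Vim was not tested.

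Among 5 genes of lipid binding and metabolism Pon2 and Aldoc rose. Pon2, a paraoxonase that limits lipid oxidation, was at 18.9, 17.7 and 17.8 CPM in control, 20.2, 19.2 and 18.6 CPM under poly(I:C) and 22.5, 24.1 and 23.2 CPM under valproic acid. The valproic acid libraries stood above the other 6 (1.28-fold, log2 change 0.36, SE 0.0755, edgeR adjusted p = 0.0133). Aldoc, the aldolase of brain and of astrocytes, was at 108, 116 and 112 CPM in control, 125, 117 and 116 CPM under poly(I:C) and 130, 138 and 121 CPM under valproic acid. It rose 1.16-fold (edgeR adjusted p = 0.0293), and failed the test with any of control replicates 1 and 3 and valproic acid replicates 1 and 2 left out (up to 0.111). Fabp7, the most abundant member per kilobase, was at 438 to 460 CPM in control and 408 to 450 CPM under valproic acid (95% interval -0.14 to 0.03). Ddah1, which degrades an inhibitor of nitric oxide synthase, lay at 171 to 174 CPM in control and 173 to 174 CPM under valproic acid, and its interval of -0.07 to 0.08 was among the narrowest. Dbi was not called either (-0.23 to 0.03).

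Among 8 transporters, receptors and membrane proteins only Prom1 was called. Prom1, the pentaspan protein CD133 of apical membrane protrusions, was at 42.3, 47.1 and 48.7 CPM in control, 53.1, 51.6 and 54.0 CPM under poly(I:C) and 54.7, 58.5 and 52.5 CPM under valproic acid. All 6 exposed libraries exceeded the controls. Prom1 rose 1.2-fold under valproic acid (edgeR adjusted p = 0.0222), which depended on control replicate 1 and valproic acid replicate 2 (up to 0.0945 without either). Ednrb, the endothelin B receptor, was at 75.9 to 85.0 CPM in control and 89.2 to 93.5 CPM under valproic acid (1.13-fold, edgeR adjusted p = 0.0577), and DESeq2 called it (adjusted p = 0.0429). Cdon, a Hedgehog coreceptor, was at 137 to 145 and 149 to 175 CPM (1.12-fold, edgeR adjusted p = 0.108). Slc1a3, the glutamate transporter GLAST, Ptprz1, a receptor phosphatase for pleiotrophin, and the podoplanin gene Pdpn had intervals of -0.04 to 0.14, -0.07 to 0.12 and -0.08 to 0.25. Ttyh1, a membrane protein of progenitors, had a log2 change of 0.11 (edgeR adjusted p = 0.173). Veph1, a PH domain protein, had one of -0.15 (edgeR adjusted p = 0.47). The 7 tested ligands of Ptprz1 and Ednrb and receptors of Mfge8 gave 0 calls by edgeR (1 at an unadjusted p under 0.05, 0 by DESeq2). The integrin subunits Itgb3 (control 2.51 ± 0.432, valproic acid 3.54 ± 0.695 CPM) and Itgb5 (35.4 ± 1.23 and 32.2 ± 2.65 CPM) had the smallest p.

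Among the 5 secreted and matrix proteins 1 fell and none rose, with a median of -0.04. Tnc, tenascin-C of the stem cell matrix, was at 85.0, 102 and 90.6 CPM in control, 86.3, 98.5 and 101 CPM under poly(I:C) and 68.1, 74.7 and 81.7 CPM under valproic acid. Every valproic acid library lay below the other 6. Tnc fell by 0.31 on the log2 scale (SE 0.0787, edgeR adjusted p = 0.0329), not called when any of control replicates 2 and 3 and valproic acid replicates 1 and 2 was left out (up to 0.123). Cspg5, neuroglycan C, was at 122 to 127 CPM in control and 110 to 119 CPM under valproic acid, below it without overlap (edgeR adjusted p = 0.207). Sparc, a matrix glycoprotein shared with vessels and meninges, Bcan, the proteoglycan brevican, and Mfge8, a bridging protein at the apical surface, overlapped between groups, with intervals of 0.00 to 0.18, -0.08 to 0.28 and -0.18 to 0.11. Tnc, Cspg5 and Bcan are also made by oligodendrocyte precursors and astrocytes. The 8 precursor markers gave 0 calls by edgeR (4 at an unadjusted p under 0.05, 0 by DESeq2) with a median of -0.18, and summed to 120 to 131 CPM in control and 110 to 126 CPM under valproic acid. Tnc is made by vascular mural cells too. Of the 15 mural and meningeal markers 11 had a positive change (median 0.11). Acta2 (5.08 ± 0.822 to 2.29 ± 0.348 CPM) and Rgs5 (74.9 ± 4.24 to 62.4 ± 3.38 CPM, a call depending on control replicate 1) fell. The other mural markers Pdgfrb (log2 change 0.05), Cspg4 (0.01), Abcc9 (-0.04) and Kcnj8 (-0.16) overlapped between groups and were not called. Under poly(I:C) Acta2 was at 4.51 ± 0.706 and Rgs5 at 65.0 ± 1.49 CPM. The part of these cells in the fall of Tnc was not tested. Astrocyte markers gave 0 calls by edgeR among 6 tested (0 at an unadjusted p under 0.05, 0 by DESeq2). They summed to 285 to 311 CPM in control and 299 to 316 CPM under valproic acid. Over all libraries Gfap did not exceed 0.903 CPM, while Gja1 was at 102 to 133 CPM and Slc1a2 at 129 to 166 CPM.

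**Figure D3:**
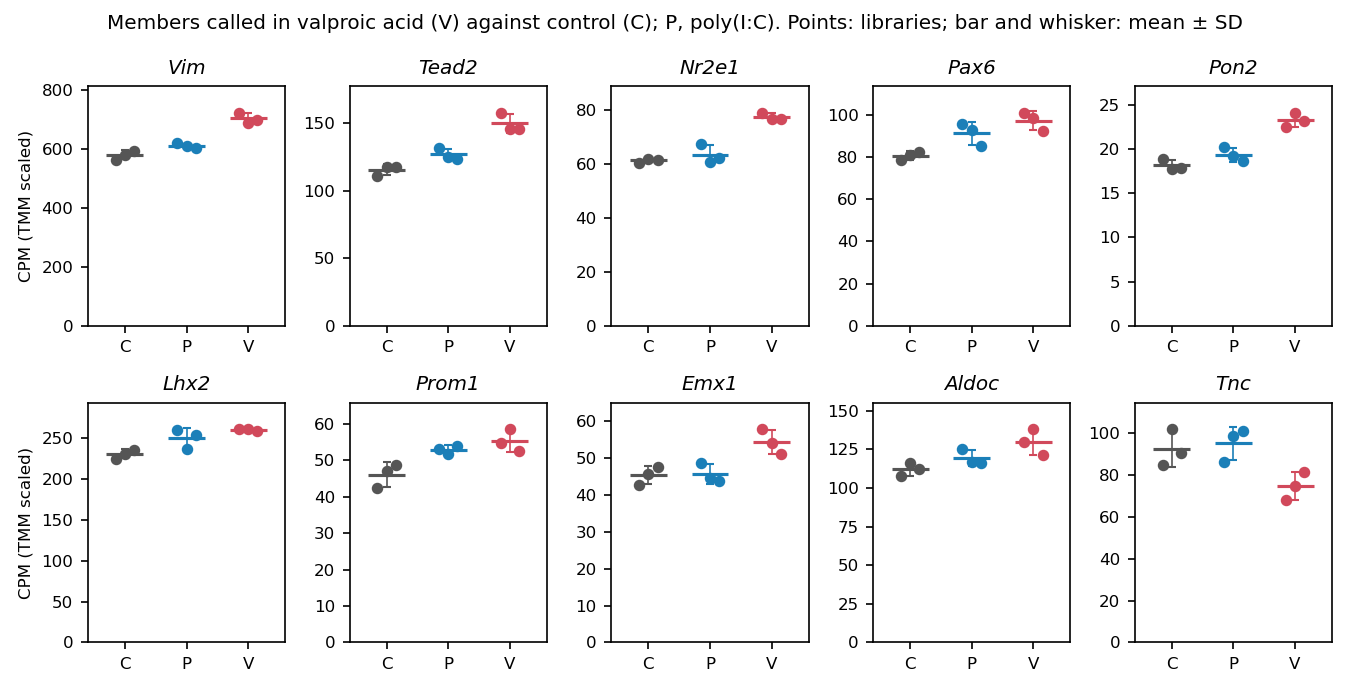
CPM in each library of the 10 members called in valproic acid against control, with the group mean and SD, for control (C), poly(I:C) (P) and valproic acid (V); every axis starts at 0. Vim, Tead2, Nr2e1, Pon2 and Emx1 under valproic acid lie above all 6 other libraries, and Tnc lies below them. Pax6, Prom1, Vim, Tead2 and Lhx2 under poly(I:C) also lie above control.

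Promoters of the 3 called members with the smallest adjusted p and of Tnc, the called member of opposite direction, are printed to show what lies upstream of genes that moved together or apart. Each is the 250 bases before a RefSeq start site (GRCm38.p6, an earlier build than that of the counts), 5′ to 3′ on the gene's strand. Only the first window listed for a gene was used, here and in the shares below, and Tnc had 2. Capitals mark matches, on either strand, to 1 of 6 motifs. These are the Notch effector RBPJ core TGGGAA, the E box CACGTG, the site CACGCG of Hes factors, the Sox cores ATTGTT and ACAAAG and the TEAD core GGAATG.
Vim (chr2:13574061-13574310, plus strand): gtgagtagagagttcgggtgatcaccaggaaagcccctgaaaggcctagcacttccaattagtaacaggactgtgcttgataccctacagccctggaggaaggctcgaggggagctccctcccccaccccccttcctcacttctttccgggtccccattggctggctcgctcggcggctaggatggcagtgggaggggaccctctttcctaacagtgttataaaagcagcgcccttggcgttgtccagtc
Tead2 (chr7:45215542-45215791, plus strand): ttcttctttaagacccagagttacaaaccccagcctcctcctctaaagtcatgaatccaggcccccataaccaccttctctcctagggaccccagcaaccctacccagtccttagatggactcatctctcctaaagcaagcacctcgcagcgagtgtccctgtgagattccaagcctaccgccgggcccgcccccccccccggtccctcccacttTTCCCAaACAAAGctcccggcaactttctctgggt
Nr2e1 (chr10:42583591-42583840, minus strand): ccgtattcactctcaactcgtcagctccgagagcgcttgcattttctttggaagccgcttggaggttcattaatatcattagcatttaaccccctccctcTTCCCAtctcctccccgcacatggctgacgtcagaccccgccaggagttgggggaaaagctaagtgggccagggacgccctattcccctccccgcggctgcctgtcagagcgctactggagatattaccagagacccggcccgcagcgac
Tnc (chr4:64047016-64047265, minus strand): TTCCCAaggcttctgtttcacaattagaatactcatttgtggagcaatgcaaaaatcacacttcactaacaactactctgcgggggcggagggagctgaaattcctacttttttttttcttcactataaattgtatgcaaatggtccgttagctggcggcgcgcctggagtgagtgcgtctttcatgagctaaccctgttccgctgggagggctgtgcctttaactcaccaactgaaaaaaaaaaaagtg
Vim holds none of these letters, Tead2 the RBPJ core followed by a Sox core, and Nr2e1 and Tnc the RBPJ core alone, each RBPJ core on the opposite strand and so printed as TTCCCA. Over the 28 members with a window in the table (all but Otx1, Tfap2c, Sox9 and Cspg5) TGGGAA was found in 11 (39.3%) against 21.5% of 27025 promoters. It was found in 6 of the 9 members that rose (66.7%): Tead2, Nr2e1, Pon2, Lhx2, Prom1 and Aldoc, and also in that of Tnc, which fell. Among members not called it was found in Mfge8, Fabp7, Zbtb20 and Emx2. Whether the motif goes with the calls was not tested. GGAATG, the TEAD core, was in 3 of the 28 (10.7% against 12.6%), and CACGTG in 2 (7.14% against 6.05%). CACGCG was in 3 (10.7% against 7.74%), ATTGTT in 1 (3.57% against 9.65%) and ACAAAG in 2 (7.14% against 16.5%). Among the 9 members that rose the TEAD core, the Hes site CACGCG and the Sox core ACAAAG were found in 1 each (11.1%). The E box CACGTG and the Sox core ATTGTT were found in 0. The member windows held more G and C (median 58.6% against 52.0%). A match describes letters, not a bound site.

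Poly(I:C) against control asked the same of embryos exposed to poly(I:C). None of the 32 members was called by edgeR (0 by DESeq2), where 0.536% of all genes were, 0.262% higher and 0.274% lower. At an unadjusted p under 0.05 were 6 members, against 12% of all genes. The smallest adjusted p was that of Pax6 at 0.186. The fold change was positive for 25 of the 32 (78.1% against 48.9% of all genes), with a median of 0.05 against 0.00, and the libraries did not overlap for 7 (21.9% against 18.4%), a share near that of all genes. Of these 6 lay above control (9.6% of all genes) and 1 below (8.83%). The highest positive fold changes, none called, were those of Prom1 (1.15-fold, 95% interval 0.07 to 0.33 on the log2 scale) and Pax6 (1.13-fold, 0.06 to 0.29). Emx2 (1.11-fold), Tead2 (1.10-fold), Lhx2 (1.09-fold) and Vim (1.05-fold) also lay above control in all 3 libraries, with edgeR adjusted p of 0.224 to 0.392. Hopx lay below it, at 2.89 to 3.5 CPM in control and 2.53 to 2.82 CPM under poly(I:C), and at a log2 change of -0.23 (95% interval -0.64 to 0.18) was the largest difference of all. Veph1 overlapped control at -0.17 (-0.41 to 0.07). For the 30 members other than Hopx and Veph1 the intervals ran from -0.15 to 0.33, so changes beyond 1.26-fold upward or 1.11-fold downward lay outside them all.

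Valproic acid against poly(I:C) tests whether the exposures differ. Of the members 3 were higher under valproic acid (1.42% of all genes were) and 1 lower (1.18%), together 12.5% against 2.59%. At an unadjusted p under 0.05 were 11, against 16.6% of all genes. The groups did not overlap for 8 members (25% against 21.9% of all genes), 7 above (10.5%) and 1 below (11.4%). Vim was 1.15-fold (edgeR adjusted p = 0.00604), Nr2e1 1.22-fold (0.0097) and Tead2 1.18-fold higher (0.0144), and Tnc was lower by 0.35 on the log2 scale (0.0324). Vim stayed called whichever library was left out. The call of Nr2e1 depended on poly(I:C) replicate 2, those of Tead2 and Tnc on poly(I:C) replicates 2 and 3, and that of Tnc on valproic acid replicates 1 and 2 as well. The number called was 1 without poly(I:C) replicate 2 and 2 without poly(I:C) replicate 3. Emx1 (1.19-fold, edgeR adjusted p = 0.0528) and Pon2 (1.2-fold, 0.081) did not overlap between the exposures but were not called. For Pax6 the difference was 0.09 (95% interval -0.02 to 0.20), for Prom1 0.06 (-0.07 to 0.19) and for Lhx2 0.06 (-0.03 to 0.14). These 3 were called against control for valproic acid and not for poly(I:C), and were not shown to differ between the exposures. Fold changes of either exposure share the control libraries. Of the 15 mural cell and meningeal fibroblast markers 5 were higher under valproic acid than under poly(I:C) and 1 lower. The calls of Fn1 and Col1a1, both higher, were kept in all 6 fits that left out a library. The list summed to 928 to 968 CPM under poly(I:C) and 1050 to 1270 CPM under valproic acid. Of 10 intermediate progenitor markers 5 were higher, and of 16 postmitotic neuron markers 3 were lower. The part of these cells in the difference of Vim was not tested.

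Other gene lists give the setting of these changes. Beside their counts, 3.57% of all genes rose and 2.78% fell under valproic acid, and 0.536% were called under poly(I:C). Of 40 further radial glia and stem cell genes outside the members, 10 rose and 1 fell under valproic acid, with a median of 0.14. The calls of Gas1 and Ccnd1 were kept in 1 and 3 of the 6 fits that left out a library, the others in all 6. Fgfr3, a fibroblast growth factor receptor of progenitors, rose from 85.6 ± 1.90 to 111 ± 0.911 CPM (1.29-fold, edgeR adjusted p = 2.46e-04). Notch1, Sall1, a zinc finger gene of progenitors, and the Wnt antagonist Sfrp1 rose 1.32-fold, 1.27-fold and 1.17-fold. The gene that fell was Nfix, a factor that promotes maturation of radial glia, named here after its value was known, at 566 ± 46.8 and 479 ± 9.34 CPM. Under poly(I:C) 1 of these 40 was called, the metallothionein Mt3, at 41.9, 46.7 and 38.7 CPM in control and 78.9, 78.4 and 77.7 CPM under poly(I:C) (1.85-fold, edgeR adjusted p = 0.00115). Mt3 also rose under valproic acid, at 71.1, 49.1 and 70.3 CPM (1.5-fold, edgeR adjusted p = 0.00704). Of 15 Hippo pathway genes, which include the other TEAD factors Tead1, Tead3 and Tead4, 2 rose under valproic acid, the coactivator Yap1 (1.18-fold) and Ajuba (1.31-fold). Neither was called without control replicate 1 or 3 or valproic acid replicate 3. Yap1 was also lost without valproic acid replicate 2, and Ajuba without either control replicate 2 or valproic acid replicate 1.

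Markers of later stages are given for the cells that radial glia produce. Of 10 intermediate progenitor markers 8 rose under valproic acid with a median of 0.32. Those of smallest p were Neurog2 (1.49-fold), Eomes (1.29-fold), Hes6 (1.22-fold) and Btg2 (1.31-fold), and the largest fold was that of the scarcer Neurog1 (1.74-fold, at 4.12 to 6.97 CPM in control and 9.16 to 11 CPM under valproic acid), named after its value was seen. Without control replicate 1 the count was 7, as it was without valproic acid replicate 2, Dll1 being lost each time. Of 20 S phase and mitosis genes 8 rose, with a median of 0.17, the smallest p being those of the replication genes Mcm3, Mcm5 and Mcm7 and of Mki67. Leaving out control replicate 1 reduced the 8 to 2 (Mcm3 and Mcm5). The count was 4 when control replicate 2 was omitted, 3 when valproic acid replicate 2 was, and 5 when valproic acid replicate 1 was. It was also 5 with the replicate number as a block and with only the 6 libraries compared. Of 16 postmitotic neuron markers 4 fell (Map2, Stmn2, Mapt and Gap43), with a median of -0.11. Their sum was 9710 to 9970 CPM in control, 9700 to 10100 CPM under poly(I:C) and 9010 to 9520 CPM under valproic acid. Each of these 4 genes lost its call without control replicate 1, without valproic acid replicate 1 and without at least 1 other library. CPM is a share of all counts, and the part of the lower neuronal share in the rise of the members was not tested. Choroid plexus and roof plate markers gave 0 calls by edgeR (1 of 10 at an unadjusted p under 0.05, 0 by DESeq2), 2 of 10 microglia markers fell (P2ry12, and Csf1r, whose call depended on control replicate 3 and valproic acid replicate 1), and 4 of 10 erythroid markers rose (Slc4a1, Hba-x, Hbb-y and Hbb-bh1, the last 3 being globins of a family with similar copies). The erythroid sum was 1790 to 2080 CPM in control, 1390 to 2000 CPM under poly(I:C) and 2250 to 2600 CPM under valproic acid. Under poly(I:C) Neurog2 rose 1.22-fold (edgeR adjusted p = 0.00615), and apart from it and Mt3 no gene of these cell type, regional and pathway lists was called by edgeR (0 to 5 more genes of a list at an unadjusted p under 0.05 outside the further radial glia genes, where it was 11 with Mt3) or by DESeq2. With no filter on low counts 1.45% of all genes were called. Among the further radial glia, Hippo, intermediate progenitor, S phase and neuron genes edgeR then also called Hes5, Notch1 and Btg2 higher and Stk3 lower. The other lists are not given for that setting. Stk3 was called lower without control replicate 2 too.

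**Figure D4:**
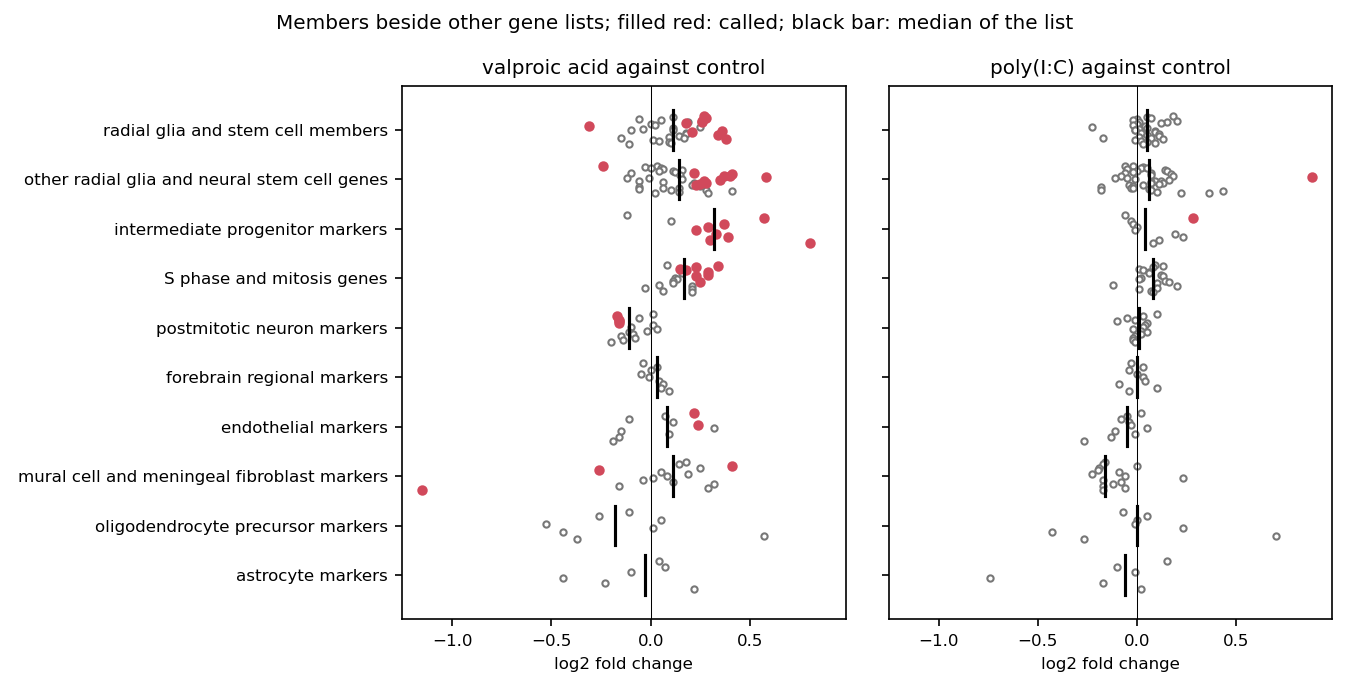
Log2 fold change of each tested gene of the members and of 9 other lists, for valproic acid and for poly(I:C) against control; filled red points are called by edgeR and the black bar is the median of the list. Under valproic acid the medians are 0.11 for the members, 0.14 for further radial glia genes, 0.32 for intermediate progenitor markers and -0.11 for neuron markers; under poly(I:C) they lie between -0.16 and 0.08.

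Because Xist was high in all valproic acid libraries and in no control, the members were also fitted with sex-linked expression as a covariate. With summed Y-linked expression 5 members stayed called (Vim, Tead2, Nr2e1, Pax6 and Pon2, adjusted p up to 0.0452), and with Xist none was (smallest edgeR adjusted p 0.118; 8 of the 10 intervals excluded 0). For the 10 called members the median size was 0.28 without a covariate, 0.29 with Y-linked expression and 0.37 with Xist on the log2 scale. Their median SE rose from 0.0526 to 0.0674 and 0.0970. All 10 kept their sign in both fits. The fit with Xist rests on poly(I:C) replicate 3, the only library outside the valproic acid group where Xist is high. The fit with Y-linked expression rests on replicate 3 of control and of poly(I:C), the only libraries outside the valproic acid group without it. It sets control replicate 3, which lacks Xist too, equal to the valproic acid libraries, so calls kept in it are not shown to be free of sex. For the comparison of the exposures the 4 calls were lost with either covariate. Of the 8 intermediate progenitor calls against control 3 remained with Y-linked expression (Neurog2, Eomes and Hes6) and 1 with Xist (Neurog2). Of the 10 further radial glia genes that rose 6 and 0 were called, and the calls of S phase, neuron and Hippo genes were 0 with either covariate.

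**Figure D5:**
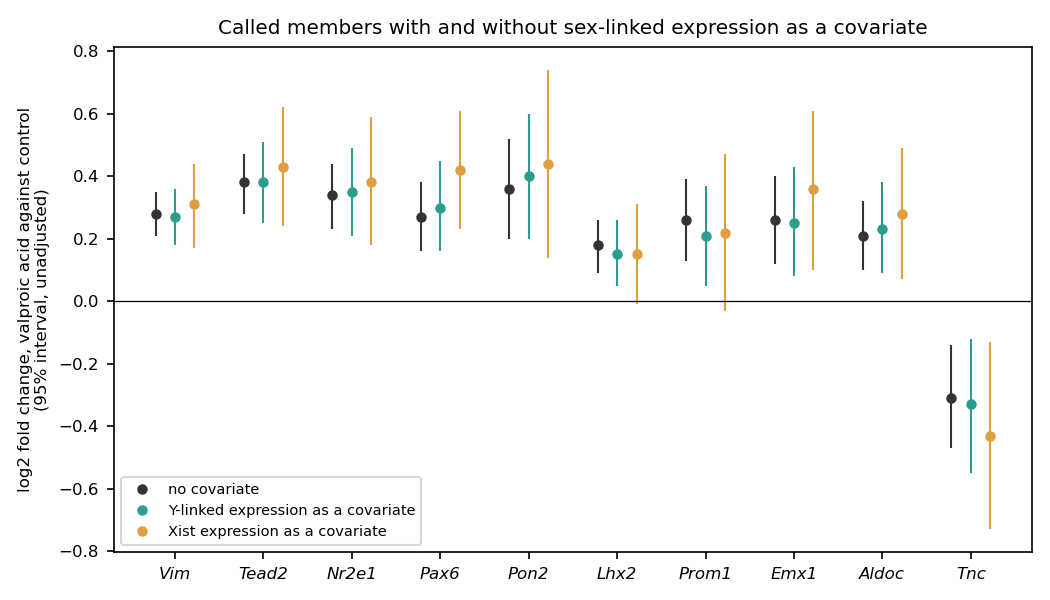
Log2 fold change of the 10 called members in valproic acid against control, with 95% intervals (unadjusted), without a covariate and with summed Y-linked or Xist expression in the fit. Points keep their side of 0 in all 3 fits, while the intervals widen, most of all with Xist, where those of Lhx2 and Prom1 include 0.

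Exons of 10 members overlap those of another annotated gene, such as Hopx with the antisense gene Hopxos (412 of 1516 bases) and Pon2 with Gm44424 (680 of 7339 bases). Other called members with an overlap were Prom1 (424 of 7175 bases), Tnc (176 of 7772 bases) and Tead2 (13 of 4788 bases). Whether the counting used strand is not stated in the labels, so reads from the shared bases cannot be told apart.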

How the data were processed

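Per the labels' protocols, ribosomal RNA was removed from total RNA and the rest was fragmented for the 9 libraries. The authors deposited raw counts per Ensembl gene, which were used as deposited. Per the submitters' processing notes HISAT2 and GRCm39 (mm39) were used; counter, strand setting and annotation: not given in the sources used here. Symbols, chromosomes and exon lengths came from GENCODE M21 (GRCm38), an earlier build than that of the counts, so the only coordinates given are those of the printed RefSeq promoters (GRCm38.p6). With edgeR 4.0.16, filterByExpr (minimum count 10, minimum total 15) kept 17171 genes, all 32 members among them. A quasi-likelihood model with TMM scaling and 1 mean for each group was fitted to the 9 libraries, with two-sided F-tests. A gene was called where its p, adjusted after Benjamini and Hochberg over all genes kept, was under 0.05. R was 4.3.3 and DESeq2 1.42.0. SE is the log2 fold change over the square root of F, and 95% intervals are unadjusted. Fits were tested on simulated data. The members and lists were chosen with earlier results of these data known, so they are no independent evidence. All members are named, called ones with every library. Of each list up to 4 called genes of smallest adjusted p are named, and some further genes after their values or the stability of their calls were known. Chi-square over its degrees of freedom was 3.73 to 6.01 for libraries of 1 group, so none was a copy. Libraries held 15399974 to 19883131 counts. Alternatives were size factors of DESeq2, 2 other filters, DESeq2, a fit of the 6 libraries compared, a block for the replicate number, 2 sex covariates and leaving out each library.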

Additional observations from a re-analysis of the deposited data

How the results depend on the processing

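Members called numbered 10 for valproic acid against control, 0 for poly(I:C) against control and 4 between the exposures. With Y-linked expression as a covariate they were 5, 0 and 0, and with Xist as a covariate 0, 0 and 0. Leaving out a library gave 6 to 10, 0, and 1 to 5. DESeq2 gave 11, 0 and 5, no filter on low counts 12, 0 and 5, and DESeq2 size factors, the filter of 1 CPM in 3 libraries and only the 6 libraries compared 10, 0 and 4 each. With the replicate number as a block they were 10, 0 and 4. Correlations gave no sign that the numbers pair the libraries, but with 3 libraries per group they cannot exclude it. Same-numbered libraries of different groups had correlations of -0.0416 to 0.131, and 6 of 18 comparisons put a library closest to its own number. The highest value was that of control replicate 3 with poly(I:C) replicate 3, both without Y-linked expression. Counting each member in each fit, a call was lost 22 times with a library left out and 23 times under other settings. A call was gained 1 and 5 times, and no called member changed sign. Over all genes the calls were 1090, 92 and 445, but 272, 86 and 111 with Y-linked expression, 19, 42 and 39 with Xist, 1661, 464 and 1057 with no filter, 912, 88 and 340 with the block, 1172, 166 and 566 with DESeq2, and 467 to 789, 38 to 63 and 112 to 294 with a library left out. The cause was not tested. Depth limits Hopx most.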
